A study of Rattus with 6 samples.

Results

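The 8 core circadian clock genes Bmal1, Clock, Npas2, Per1, Per2, Cry1, Nr1d1 and Dbp were followed in RNA sequencing of cardiomyocytes isolated from rat ventricles, the contractile cells of the heart's main chambers. They were taken by their Ensembl identifiers from the 23092 genes counted in each library, and all 8 passed the filter on low counts that left 11905 genes for testing. The files hold identifiers only, and the gene names used here are those paired with the identifiers when the genes were chosen. The control group held 3 libraries from wild-type male Wistar rats aged 8 weeks without hypergravity. The hypergravity group held 3 libraries from rats of the same strain, genotype, sex and age that were exposed to 4 g during 8 h of each day over 14 days. The labels do not say whether each library came from a separate rat, so the p-values measure only the spread between these libraries. The hours of heart collection and of centrifugation are not given in the sources used here, and the part of either in the values was not tested.

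The circadian clock is a feedback loop of transcription that runs with a period of about a day in nearly every cell, heart muscle cells included. The proteins BMAL1 and CLOCK, or NPAS2 in place of CLOCK, pair and switch on genes that carry E-box elements, among them Per1, Per2, Cry1, Nr1d1 and Dbp. The PER and CRY proteins return to the nucleus and inhibit that pair, and REV-ERB alpha, the product of Nr1d1, represses Bmal1, so Bmal1 transcripts peak at about the opposite phase from those of Nr1d1 and Dbp. The clock of the heart sets daily rhythms in metabolism, ion channel transcripts and the response to stress.

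Between 25151759 and 33700736 reads were assigned to genes in each control library and between 24440690 and 45497422 in each hypergravity library. The 10 most abundant genes took between 52.5 and 73.4% of these counts, and levels are therefore given as CPM, the reads of a gene per 1000000 assigned reads, after trimmed mean of M values (TMM) scaling, which lessens the effect of a few abundant genes. Alignments outside annotated exons made up 2.85 to 3.20% of a control library's alignments and 4.07 to 4.40% of a hypergravity library's, and their part in the differences between the groups was not tested. Control library 3 stood apart from the other 2 control libraries in Bmal1, Clock, Npas2, Per1 and Per2, and values without it are given where it matters. It also differed from them in composition, with 60.5% of its counts in the 10 most abundant genes and a TMM factor of 1.16. Control library 1 had 72.7% and 0.809, and control library 2 had 70.2% and 0.774. Hypergravity library 1 had 59.2% and 1.13, library 2 had 52.5% and 1.52, and library 3 had 73.4% and 0.805. The part of these differences in composition in the clock gene values was not tested. Marker genes of cardiomyocytes and of other cell types could not be matched to the identifiers, so the labelled cell type was not checked. In RNA from many cells, fewer cells of a type and less RNA per cell cannot be told apart.

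At an adjusted p-value under 0.05, 0 of the 8 clock genes were called higher and 0 lower after hypergravity (quasi-likelihood test of edgeR, adjusted by Benjamini-Hochberg over all genes tested), where 0% of all genes were called higher and 0.0336% lower. By the same test and before adjustment, at a p-value under 0.05, Per2 was higher, where 7.35% of all genes were, and Bmal1 and Clock were lower, where 6.22% of all genes were. The libraries of the groups did not overlap for the same 3 genes, Per2 upward, where 11.3% of all genes lay apart, and Bmal1 and Clock downward, where 10.5% did. DESeq2, run as an alternative, called Bmal1 lower and Per2 higher at an adjusted p-value under 0.05, beside 1.41% of the genes with an adjusted p-value called lower and 1.63% called higher. The median log2 fold change of the 8 genes was -0.16, and that of all genes tested was -0.02.

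**Figure D1:**
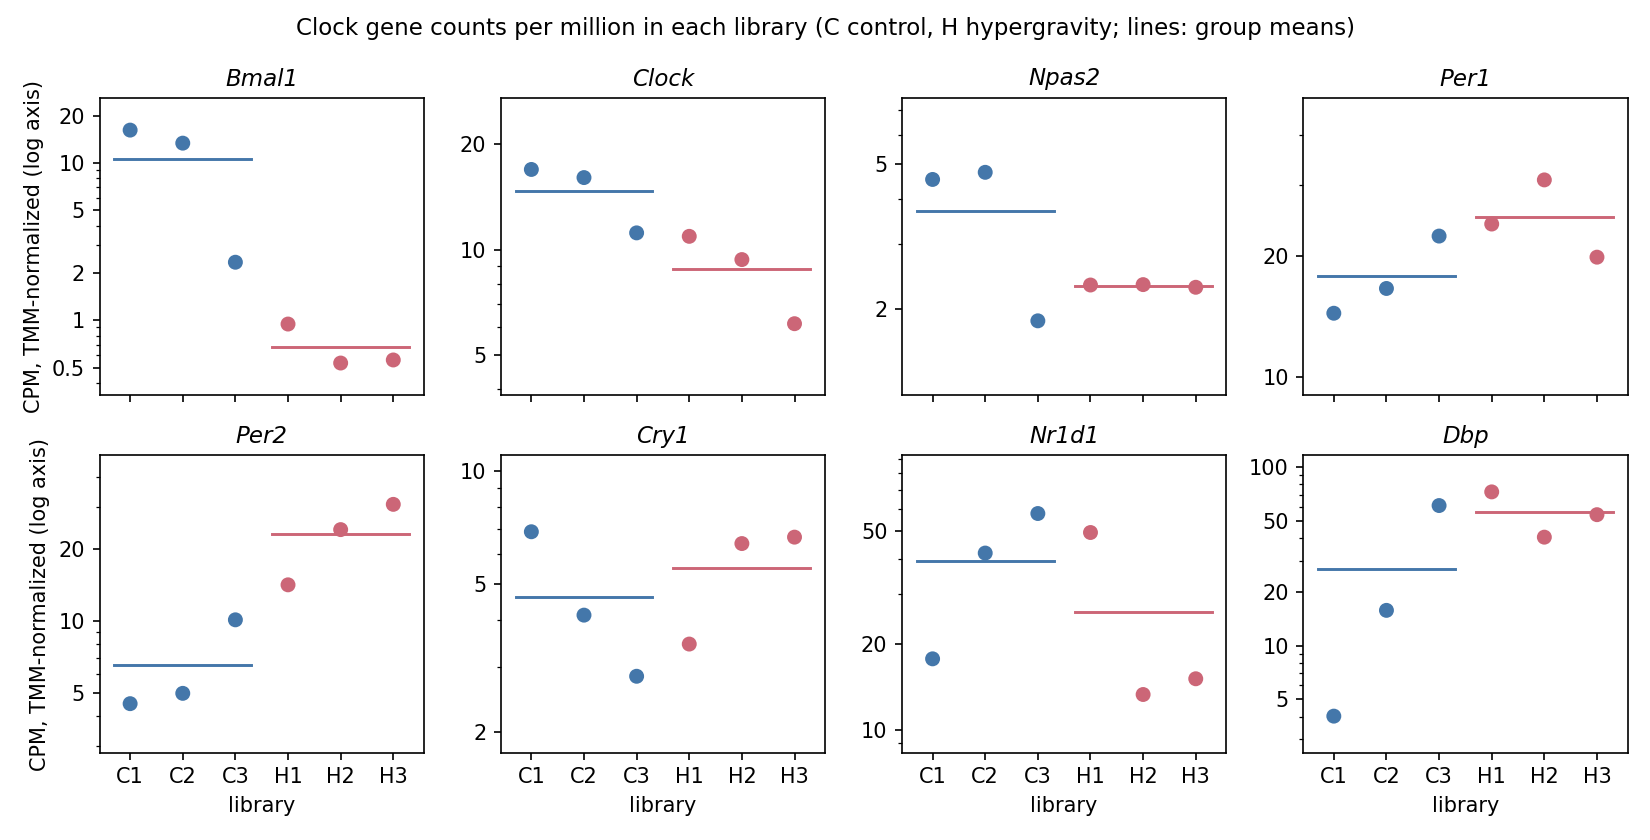
Each panel plots 1 clock gene as TMM-normalized CPM on a log axis in control libraries 1 to 3 (C1 to C3, blue) and hypergravity libraries 1 to 3 (H1 to H3, red), with a line at each group mean. All 3 hypergravity points of Bmal1 lie under 1 CPM and below every control point, whereas Per2 shows the opposite order and Cry1 and Nr1d1 overlap widely.

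Among the activators, Bmal1 (ENSRNOG00000014448), whose protein is the partner that both CLOCK and NPAS2 need, differed most between the groups. It had 16.2, 13.4 and 2.34 CPM in control libraries 1, 2 and 3, and 0.946, 0.535 and 0.559 CPM in hypergravity libraries 1, 2 and 3. Every hypergravity library was below every control library, and control library 3 was closer to the hypergravity libraries than to the other 2 control libraries. The group means were 10.6 ± 7.32 CPM (SD, n = 3) in control and 0.680 ± 0.231 CPM (SD, n = 3) after hypergravity. The log2 fold change was -3.94 with a standard error of 0.69 (95% interval -5.51 to -2.36), a level 15.3-fold lower after hypergravity. The adjusted p-value of edgeR's quasi-likelihood test was 0.169, so the difference did not pass the threshold. Of the 6 fits that left out 1 library each, only that without control library 3, the control library nearest to the hypergravity libraries, passed the threshold (log2 fold change -4.42, edgeR adjusted p = 0.0118). The other 5 gave log2 fold changes from -4.23 to -3.50 and edgeR adjusted p-values from 0.161 to 0.536.

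The counts behind the low Bmal1 values were small. The 3 hypergravity libraries held 42, 37 and 11 reads of Bmal1, and the control libraries held 329, 305 and 91. The exact 95% Poisson interval ran from 30.3 to 56.8 reads for the 42 reads of hypergravity library 1 and from 73.3 to 112 for the 91 reads of control library 3. These nearest libraries of the groups thus lay apart by more than counting error, although hypergravity library 1 had the larger total. For the 11 reads of hypergravity library 3 the interval ran from 5.49 to 19.7 reads, so the order among the 3 hypergravity libraries is not resolved at this depth.

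Clock (ENSRNOG00000002175), which encodes the usual partner of BMAL1, was lower in every hypergravity library by a much smaller fold. It had 17.0, 16.1 and 11.2 CPM in control libraries 1, 2 and 3, and 10.9, 9.38 and 6.15 CPM in hypergravity libraries 1, 2 and 3. The gap between control library 3 and hypergravity library 1 was narrow. The log2 fold change was -0.73 with a standard error of 0.24 (95% interval -1.29 to -0.16), and the edgeR adjusted p-value was 0.264. Without control library 3 it was -0.90 (edgeR adjusted p = 0.354). The separation of the groups depended on the scaling, since with library size alone the log2 fold change was -0.30 and only Bmal1 was left with all hypergravity libraries below all control libraries, where 1.92% of all genes lay apart downward. Under that scaling the median over all genes was 0.32 in place of -0.02.

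Npas2 (ENSRNOG00000013408), which encodes the alternative partner of BMAL1, split the control group. Control libraries 1 and 2 had 4.52 and 4.73 CPM, control library 3 had 1.85 CPM, and the hypergravity libraries had 2.32, 2.33 and 2.29 CPM. Control library 3 was the lowest of all 6 libraries, so the groups overlapped. Between the groups the log2 fold change was -0.67 with a standard error of 0.35 (95% interval -1.46 to 0.13), with an edgeR adjusted p-value of 0.432. Without control library 3 it was -1.0 (edgeR adjusted p = 0.300), and without control library 2 it was -0.42 (0.692). With limma-voom it was -0.42 and with library size alone -0.23.

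Among the repressors, Per2 (ENSRNOG00000020254) differed most between the groups. It had 4.52, 5.00 and 10.1 CPM in control libraries 1, 2 and 3, and 14.2, 24.1 and 30.7 CPM in hypergravity libraries 1, 2 and 3. Every hypergravity library was above every control library, and control library 3 was again the control library nearest to them. The group means were 6.55 ± 3.11 CPM (SD, n = 3) in control and 23.0 ± 8.32 CPM (SD, n = 3) after hypergravity. The log2 fold change was 1.79 with a standard error of 0.37 (95% interval 0.93 to 2.65), which is 3.45-fold, and the edgeR adjusted p-value was 0.172. With DESeq2 the log2 fold change was 1.81 and its adjusted p-value 0.000298. Without control library 3 the edgeR log2 fold change was 2.27, with an adjusted p-value of 0.216.

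Per1 (ENSRNOG00000007387), the paralog of Per2 that also answers quickly to hormones and neural signals, differed less. It had 14.4, 16.6 and 22.4 CPM in control libraries 1, 2 and 3, and 24.0, 31.0 and 19.9 CPM in hypergravity libraries 1, 2 and 3. Hypergravity library 3 lay below control library 3, so the groups overlapped. Its log2 fold change was 0.49 with a standard error of 0.22 (95% interval -0.02 to 1.00), and the edgeR adjusted p-value was 0.388. With library size alone it was 0.84 (adjusted p = 0.638), and without hypergravity library 2 it was 0.31 (0.737). Without control library 3 it was 0.69 (edgeR adjusted p = 0.407).

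Cry1 (ENSRNOG00000006622), whose protein is the strongest inhibitor of the BMAL1 pair, showed no difference beyond the spread of the libraries. It had 6.89, 4.12 and 2.83 CPM in control libraries 1, 2 and 3, and 3.45, 6.40 and 6.66 CPM in hypergravity libraries 1, 2 and 3. The highest and the lowest library were both controls. Its log2 fold change was 0.26 with a standard error of 0.37 (95% interval -0.58 to 1.11, edgeR adjusted p = 0.786), and without control library 3 it was -0.0035.

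Nr1d1 (ENSRNOG00000009329), which encodes REV-ERB alpha, the nuclear receptor that represses Bmal1, varied as much within the groups as between them. It had 17.8, 41.9 and 57.7 CPM in control libraries 1, 2 and 3, and 49.5, 13.3 and 15.2 CPM in hypergravity libraries 1, 2 and 3. Hypergravity library 1 lay with control libraries 2 and 3, and hypergravity libraries 2 and 3 lay with control library 1. From control to hypergravity its log2 fold change was -0.59 with a standard error of 0.56 (95% interval -1.89 to 0.71, edgeR adjusted p = 0.672). It moved with the library left out, from -1.43 without hypergravity library 1 (edgeR adjusted p = 0.278) and -0.94 without control library 1 (0.618) to -0.33 without hypergravity library 3 (0.813), -0.27 without hypergravity library 2 (0.929) and -0.20 without control library 3 (0.926). Nr1d1 therefore did not share the order of libraries that Bmal1 and Per2 showed.

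Dbp (ENSRNOG00000021027), which encodes a transcription factor that binds D-box elements and passes the rhythm on to output genes, had the widest span within the control group. It had 4.03, 15.8 and 61.0 CPM in control libraries 1, 2 and 3, a 15.1-fold span, and 72.7, 40.6 and 54.2 CPM in hypergravity libraries 1, 2 and 3. Control library 3 lay among the hypergravity libraries, and the other 2 control libraries lay below all of them. The log2 fold change was 1.04 with a standard error of 0.76 (95% interval -0.70 to 2.78), and the edgeR adjusted p-value was 0.573. The size depended on control library 3, since without it the log2 fold change was 2.49, still without passing the threshold (edgeR adjusted p = 0.300). Without control library 1 it was 0.53 (edgeR adjusted p = 0.765), and with limma-voom it was 1.77 (adjusted p = 0.375).

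**Figure D2:**
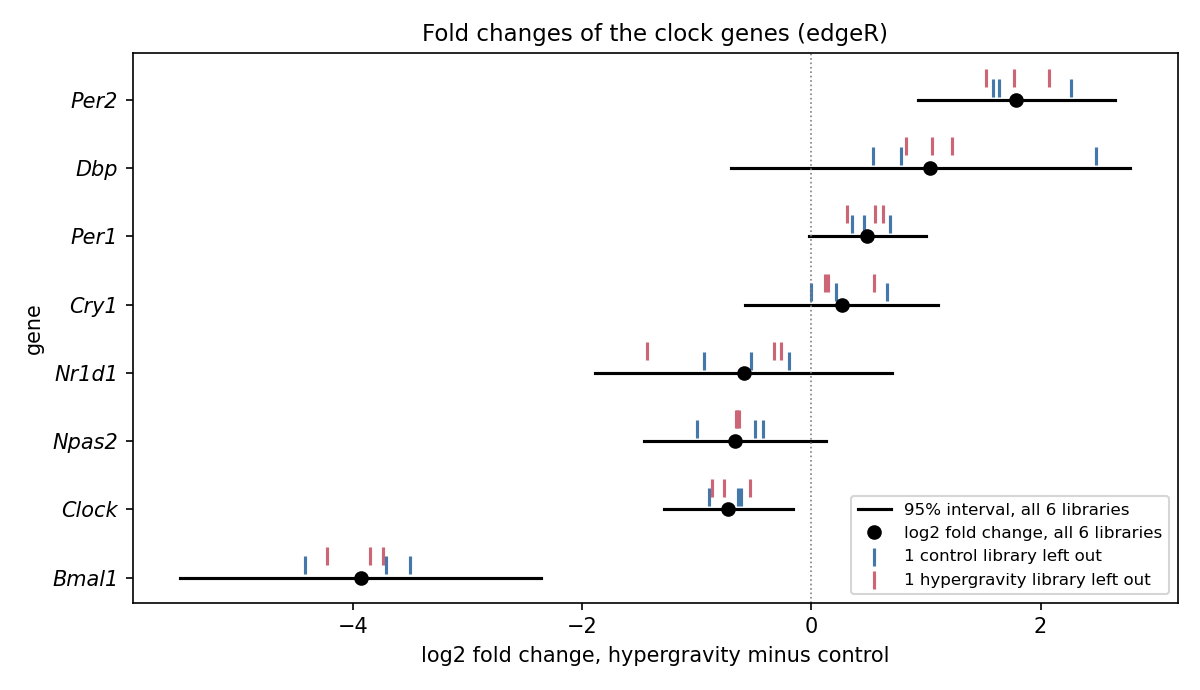
The horizontal axis gives the log2 fold change, hypergravity minus control, of each clock gene; black points and lines are the edgeR estimates and 95% intervals from all 6 libraries, and ticks are the estimates with 1 control (blue) or 1 hypergravity (red) library left out. The intervals of Bmal1, Clock and Per2 exclude 0 before adjustment for the number of genes, and the tick farthest from its point belongs to Dbp without control library 3, at 2.49.

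Set among all genes tested, Bmal1 ranked 4 from the lowest log2 fold change and Per2 ranked 15 from the highest of 11905 genes. By p-value Bmal1 ranked 27 and Per2 ranked 90. Dbp ranked 193 from the highest fold change but 4305 by p-value, beside its 15.1-fold span within the control group. Clock ranked 621 and Npas2 ranked 754 from the lowest fold change, and Per1 ranked 1343 from the highest. Bmal1 and Per2 thus lay at the edges of the distribution of fold changes while neither passed the adjusted threshold with 3 libraries per group.

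**Figure D3:**
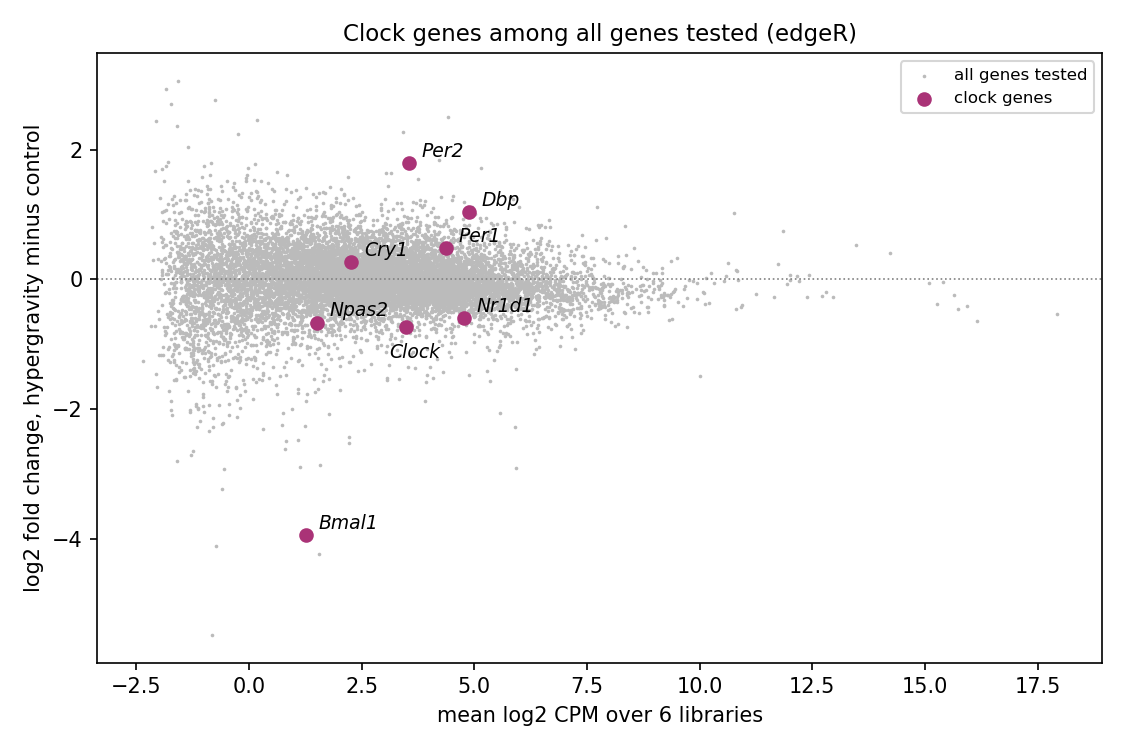
The plot sets the log2 fold change, hypergravity minus control, against the mean log2 CPM over the 6 libraries for all 11905 genes tested (grey), with the 8 clock genes marked. Bmal1 sits at -3.94, with only 3 genes lower, and Per2 sits at 1.79 near the upper edge, while Cry1 lies within the bulk of genes.

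Within-group variation differed between the clock genes. The SD of log2 CPM within groups had a median of 0.59 over the 8 clock genes and of 0.27 over all genes tested. For Dbp this SD was 1.41, larger than in 98.2% of the genes tested, and for Bmal1 it was 1.12, larger than in 94.3%. Nr1d1, with 0.96, exceeded 92.2% of the genes, and Per1, with 0.32, had the smallest value of the 8 and still exceeded 61.6%. Most of the spread of Dbp and Bmal1 came from the control libraries. Within the control group Dbp spanned 3.90 on the log2 scale and Bmal1 2.76, where the median gene spanned 0.44. Within the hypergravity group they spanned 0.84 and 0.76, where the median gene spanned 0.52. In contrast, Nr1d1 spanned 1.69 within the control group and 1.89 within the hypergravity group. Npas2 had a span of 1.33 within the control group and of 0.02 within the hypergravity group, where 0.160% of the genes tested had a smaller span. Its lowest count there was 45 reads (exact 95% Poisson interval 32.8 to 60.2), so that narrow span lies within counting error.

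Control libraries 1 and 3 often lay at opposite ends of the control group. Of all 6 libraries, control library 1 had the top level of Bmal1, Clock and Cry1 and the bottom level of Per1, Per2 and Dbp. Relative to the control mean of log2 CPM, it differed by -1.95 for Dbp and -0.98 for Nr1d1, and control library 3 differed by 1.95 and 0.72. Control library 3 was the lowest of the 6 libraries for Npas2 and Cry1 and the highest for Nr1d1. For Bmal1, Clock and Per2 it lay between the other 2 control libraries and all 3 hypergravity libraries, and for Per1 and Dbp it lay within the range of the hypergravity libraries. Without control library 3, 3 clock genes (Per1, Per2 and Dbp) had all hypergravity libraries above all control libraries and 3 (Bmal1, Clock and Npas2) had all below, compared with 1 and 2 genes in all 6 libraries. Groups with fewer libraries lie apart more often, and without this library 15.0% of all genes lay apart upward and 15.5% downward. The label of this library is control, and it was kept as such throughout.

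Ratios of counts within a library need no scaling between libraries, and gene length cancels when a ratio is compared between libraries. For each read of Bmal1 there were 0.249, 1.18 and 26.1 reads of Dbp in control libraries 1, 2 and 3. In hypergravity libraries 1, 2 and 3 there were 76.8, 75.8 and 96.9 reads of Dbp for each read of Bmal1. The 3 hypergravity libraries were thus above each control library, while the control libraries spread widely. The hypergravity ratios rest on 42, 37 and 11 reads of Bmal1, so how close they lie to each other is not resolved at this depth.

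For each read of Bmal1 there were 0.280, 0.374 and 4.33 reads of Per2 in control libraries 1, 2 and 3, and 15.0, 45.1 and 54.9 in hypergravity libraries 1, 2 and 3. The groups did not overlap in this ratio. That follows from every hypergravity library being below every control library for Bmal1 and above for Per2. The ratio of Dbp to Npas2 counts did overlap, with 0.891, 3.33 and 32.9 reads of Dbp for each read of Npas2 in the control libraries and 31.3, 17.4 and 23.7 in the hypergravity libraries. Between both partners of BMAL1, there were 3.75, 3.40 and 6.04 reads of Clock for each read of Npas2 in the control libraries and 4.71, 4.03 and 2.69 in the hypergravity libraries, and the groups overlapped. These ratios are descriptions without a test.

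**Figure D4:**
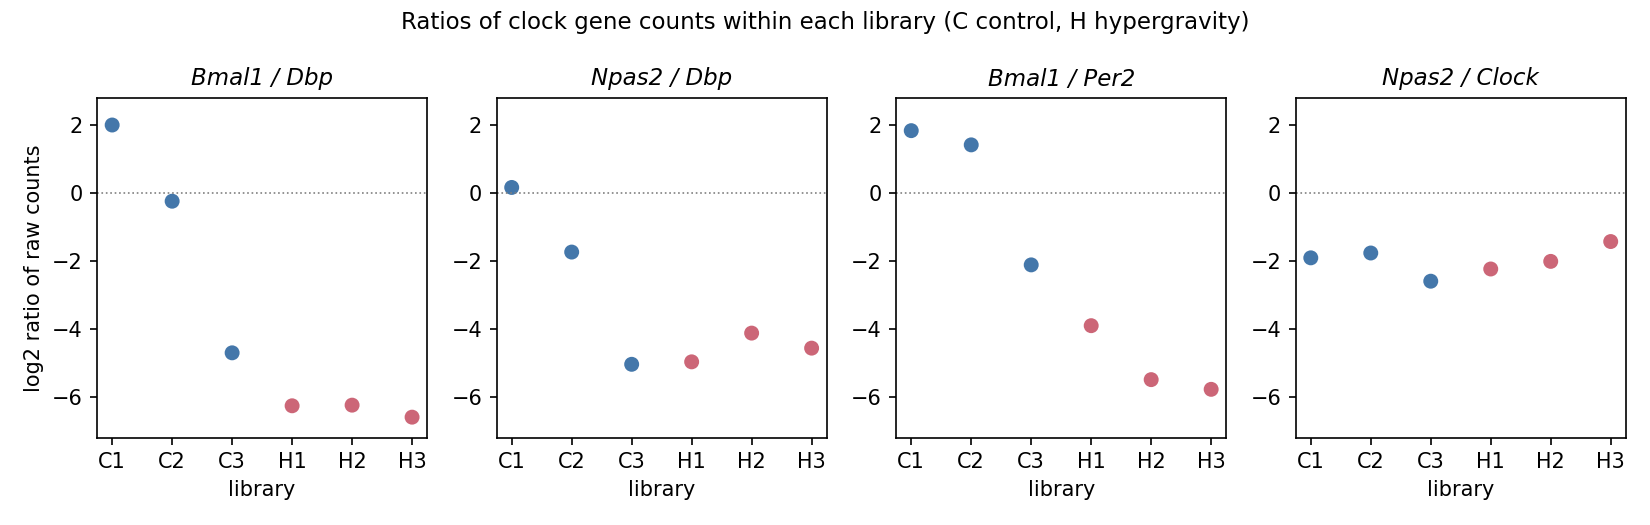
The 4 panels plot the log2 ratio of raw counts of 2 clock genes within each control (C1 to C3, blue) and hypergravity (H1 to H3, red) library, on a common vertical axis. Bmal1 over Dbp lies between -6.60 and -6.24 in the hypergravity libraries and between -4.70 and 2.00 in the control libraries, while Npas2 over Clock stays between -2.59 and -1.43 in all 6.

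The pairs of clock genes also differed in how alike their levels ran over the 6 libraries. As a measure of likeness, Pearson's r of log2 CPM was taken over the 6 libraries, which share the group difference and the scaling, and is given as a description. With Bmal1, Clock gave 0.90 and Npas2 0.85, whereas Per2 gave -0.97, Per1 -0.84 and Dbp -0.84. Among 6767 genes with a mean of at least 5 CPM, Clock ranked 214 from the most like Bmal1, and Per2 ranked 11, Per1 348 and Dbp 354 from the most opposite. Cry1, with -0.05, and Nr1d1, with 0.25, showed no likeness to Bmal1. With Dbp, Per1 gave 0.76 (rank 261 of the same number of genes), Per2 0.75 (rank 285), Nr1d1 0.30 and Npas2 -0.88.

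The 5 genes most like Dbp had r from 0.97 to 0.99, and the 5 most like Bmal1 had r from 0.98 to 0.99. None of these 10 was another clock gene of the set, and no table used here gives their names. The gene most like Dbp, listed as ENSRNOG00000011541, had 14.6, 16.0 and 18.5 CPM in control libraries 1, 2 and 3 and 18.7, 18.1 and 18.8 CPM in hypergravity libraries 1, 2 and 3. It thus ran in the same order as Dbp in the control libraries over a far narrower span. The gene most like Bmal1, listed as ENSRNOG00000003782, had 23.2, 22.1 and 18.9 CPM in the control libraries and 16.9, 15.2 and 15.7 CPM in the hypergravity libraries.

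Where the genes overlap a neighbour, reads can be lost or shared. In RefSeq's table of the assembly GRCr8, which is not the build of the files, 5 of the 8 genes overlap another gene. Nr1d1 overlaps Thra, the gene of thyroid hormone receptor alpha, Cry1 overlaps a protein-coding gene without a given name, and Clock, Npas2 and Per2 overlap long noncoding RNA genes. Bmal1, Per1 and Dbp overlap none there. The strand setting of the counting is not given in the sources used here, so reads from the overlapping stretches could not be told apart.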

How the data were processed

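RNA of isolated ventricular cardiomyocytes was enriched for poly(A) RNA and sequenced in 6 libraries, 3 control and 3 hypergravity, grouped by the titles in the labels. The deposited values are raw counts of reads per gene, which the authors made with FastQC, Trimmomatic, HISAT2 and HTSeq on the genome mRatBN7.2, per the submitters' processing notes; versions, annotation and strand setting are not given in the sources used here. The 5 summary categories of HTSeq, 8.55 to 9.92% of the listed alignments, were left out of library sizes and tests. Hypergravity was compared with control over all genes with edgeR 4.0.16 in R 4.3.3 (TMM, filterByExpr, quasi-likelihood test, Benjamini-Hochberg adjustment, threshold 0.05). Standard errors are the log2 fold change over the square root of F. Log2 CPM used a prior count of 2. The alternatives were DESeq2 1.42.0, limma-voom (limma 3.58.1), other scalings and filters, the 10 most abundant genes left out, the replicate number as a block, and the omission of each library in turn. The tools were tested on counts simulated with the same spread setting for every gene, which differs from the within-group variation seen here. Poisson intervals cover counting error only. All 8 genes were to be named, and the 5 genes most like Dbp and Bmal1. The members and lists were chosen with earlier results of these data known. Lists of other clock genes and of cell type markers, and gene lengths, were not analysed here, because 0 of the identifiers could be matched to symbols. Promoter motifs were not analysed, because no promoter sequences were at hand.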

Additional observations from a re-analysis of the deposited data

How the results depend on the processing

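Over 14 alternatives to the analysis, the log2 fold changes of Bmal1 (-4.42 to -3.45), Clock, Npas2, Per1, Per2 (1.53 to 2.27), Nr1d1 and Dbp kept their direction, and that of Cry1 reversed in 1, to -0.0035 without control library 3 (-0.0035 to 0.66 over the 6 omissions of a library). Bmal1 was called lower in 4 of them (adjusted p from 2.65e-08 to 0.536 over all 14): with DESeq2, with library size alone, with no filter on low counts and without control library 3, so that 1 clock gene was called lower in each. Per2 was called higher in 1, DESeq2 (adjusted p from 0.000298 to 0.536 over all 14), so that 1 clock gene was called higher there. The other 6 clock genes were called in none of the 14. Each library left out in turn gave 0 to 1 clock genes called lower and 0 called higher, and the counts of clock genes whose groups did not overlap ran from 1 to 3 upward (3 without control library 3, where 15.0% of all genes lay apart upward, and 2 without hypergravity library 3, where 19.4% did) and from 2 to 3 downward (3 without control library 3, where 15.5% of all genes lay apart downward, and 3 without hypergravity library 1, where 16.1% did). With library size alone, 1 gene did not overlap downward, where 1.92% of all genes did not. Over all 14 alternatives, the log2 fold change ran from -0.90 to -0.30 for Clock, -1.0 to -0.23 for Npas2, 0.31 to 0.84 for Per1, -1.43 to -0.20 for Nr1d1 and 0.53 to 2.49 for Dbp. Over all genes, 0 were called higher and 4 lower in the analysis as reported (875 and 740 at an unadjusted p under 0.05). DESeq2 called 175 higher and 151 lower, no filter 4 and 11, library size alone 0 and 1, and the 10 most abundant genes left out 0 and 0, while leaving out each library gave 0 to 1 lower and 0 higher. With a replicate block, 0 genes were called, and Bmal1 (log2 fold change -3.80, adjusted p = 0.159) and Per2 (1.84, 0.159) stayed uncalled. The deviations of same-numbered libraries from their group means correlated at -0.47, -0.11 and 0.21 across genes. Those of differently numbered libraries correlated at -0.44 to 0.63. The deviations within a group depend on each other, so these values cannot decide whether the numbers pair the libraries. The cause of the changes between alternatives was not tested. Depth limits Bmal1 after hypergravity, where 3 libraries held 11 to 42 reads.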
